A study of Homo sapiens with 12 samples.

Results

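The proteasome is the protease complex that degrades ubiquitin-tagged proteins. Its barrel-shaped core particle has rings of alpha subunits (PSMA), which form the gate, and rings of beta subunits (PSMB), of which PSMB5, PSMB6 and PSMB7 cut peptide bonds. The regulatory particle sits on the core: its base holds the ATPases (PSMC) that unfold substrates, and its lid (PSMD) holds the deubiquitinase PSMD14. Other caps (PSME) open the gate without ubiquitin, PSMF1 is known as an inhibitor of the core, and chaperones (PSMG for the core, PSMD5, PSMD9 and PSMD10 for the base) assist assembly. When proteasome activity falls short, the transcription factor NFE2L1 is known to raise many of these genes together. Proteasome inhibitors are used against some B-cell malignancies.

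Members were taken by name, as the protein-coding genes whose symbol starts with PSM, a letter from A to G and a digit. The immunoproteasome genes PSMB8, PSMB9 and PSMB10 were left out. The rule gave 46 of 58302 genes: 14 of the core particle, 17 of the regulatory particle and 15 of neither. Genes under other symbols, such as ADRM1 and SEM1, are not among the 17, and counts and sums for the regulatory particle leave them out. The 15 are 4 activators, 1 inhibitor, 4 core chaperones, 3 chaperones of the base, the tissue-restricted PSMA8 and PSMB11, and PSMC3IP. PSMC3IP matches by name only and is known for a role in meiotic recombination, not as a proteasome subunit. PSMB11, the beta subunit of the thymus, had 0 counts in all 12 libraries, which allows up to 3 counts in each, and the other 45 passed the filter on low counts. PSMA8, the alpha subunit of the testis, passed only through SU-DHL6, so 44 members had reads in OCI-LY3.

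RNA was sequenced from OCI-LY3 and SU-DHL6, established human diffuse large B-cell lymphoma lines. The labels assign OCI-LY3 to the activated B-cell type and SU-DHL6 to the germinal centre B-cell type, and give both genotypes as wild type. Each line was untreated or treated with selinexor, which blocks the nuclear export receptor XPO1, in 3 libraries per group, called biological triplicates by the design text. The protocols name 300 and 100 nM and 24 and 48 h, with untreated cells kept for the same durations, but tie no dose or time to a library, so dose and time may differ between the lines. Each line is 1 culture model of its lymphoma type. How the triplicate cultures were set up is not stated, and p-values measure only the spread between these libraries.

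Library totals ran from 14210200 to 16405842 counts, and replicates correlated at 0.981 to 0.986 over log2 CPM (counts scaled to library size). The lines separated on the first principal component, with 79.7% of the variance. On the fourth (1.21%), untreated SU-DHL6 library 1 and treated OCI-LY3 library 3 lay away from their replicates. Without the former, 27 members were called in SU-DHL6 in place of 22, and without the latter 18 were called in OCI-LY3 in place of 20. The labelled types were met by their markers: IRF4, BATF, CCND2 and FOXP1 were higher in untreated OCI-LY3 and BCL6, MME, LMO2 and MYBL1 in untreated SU-DHL6. The B-cell genes MS4A1, CD79A, CD79B, CD22 and PAX5 were present in both lines. Of the 8 markers of other cell types, 6 did not pass the filter on low counts. CD3E, of T cells, reached at most 2.17 CPM, and COL1A1, of fibroblasts, stood at 22.1 to 38 CPM in OCI-LY3 and at most 0.186 CPM in SU-DHL6. With selinexor both were called higher in OCI-LY3 (log2 fold change 3.23 ± 0.60, adjusted p = 0.000607, and 0.53 ± 0.18, adjusted p = 0.0306), COL1A1 not with scaling by library totals (adjusted p = 0.0962). In SU-DHL6 CD3E was called lower (-2.58 ± 0.79, adjusted p = 0.0171). Their part in the results was not tested.

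In OCI-LY3, selinexor was followed by lower levels of 17 members and higher levels of 3. All 4 core assembly chaperones fell, as did 6 of the 14 core subunits, 4 of the 17 regulatory subunits and the activators PSME2 and PSME4. The rises were PSME3, PSMD10 and PSMC5. In SU-DHL6, 14 members fell and 8 rose: 6 of the 8 rises were regulatory subunits, led by PSMD12, and the falls included 3 of the 4 core chaperones and the active-site subunit PSMB7. A call is an adjusted p under 0.05 in edgeR's quasi-likelihood test over 16474 genes. Of all these genes, 44.4% were called in OCI-LY3 (22.2% higher, 22.2% lower) and 43.2% in SU-DHL6 (20.4% higher, 22.8% lower). The members' shares, 45.5% of 44 and 48.9% of 45, were thus near the background; the direction was less even, with 17 of the 20 calls in OCI-LY3 lower.

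The median log2 fold change of the core subunits was -0.24 in OCI-LY3 and -0.16 in SU-DHL6, and that of the regulatory subunits -0.17 and -0.04, against 0 and 0.0028 for all genes. These values rest on TMM scaling, which assumes that most genes did not change. Scaling by library totals moved the median of all genes to -0.09 in OCI-LY3 and to 0.27 in SU-DHL6. The core and regulatory medians then became -0.36 and -0.28 in OCI-LY3, where 3 members were called higher and 23 lower. In SU-DHL6 they became 0.10 and 0.23, and 16 members were called higher and 7 lower. All 8 rises in SU-DHL6 kept their call under that scaling. The falls of PSMA5, PSMA6, PSMB3, PSMB4, PSMC5, PSMD2 and PSMG1 there did not, while those of PSMA8, PSMB7, PSMC3, PSMC3IP, PSMD9, PSMG2 and PSMG3 did. Rises and falls below are relative to the typical gene, except for levels and sums in FPKM, which are scaled by library totals. In bulk RNA a smaller number of cells of a kind and less RNA per cell cannot be told apart.

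**Figure D1:**
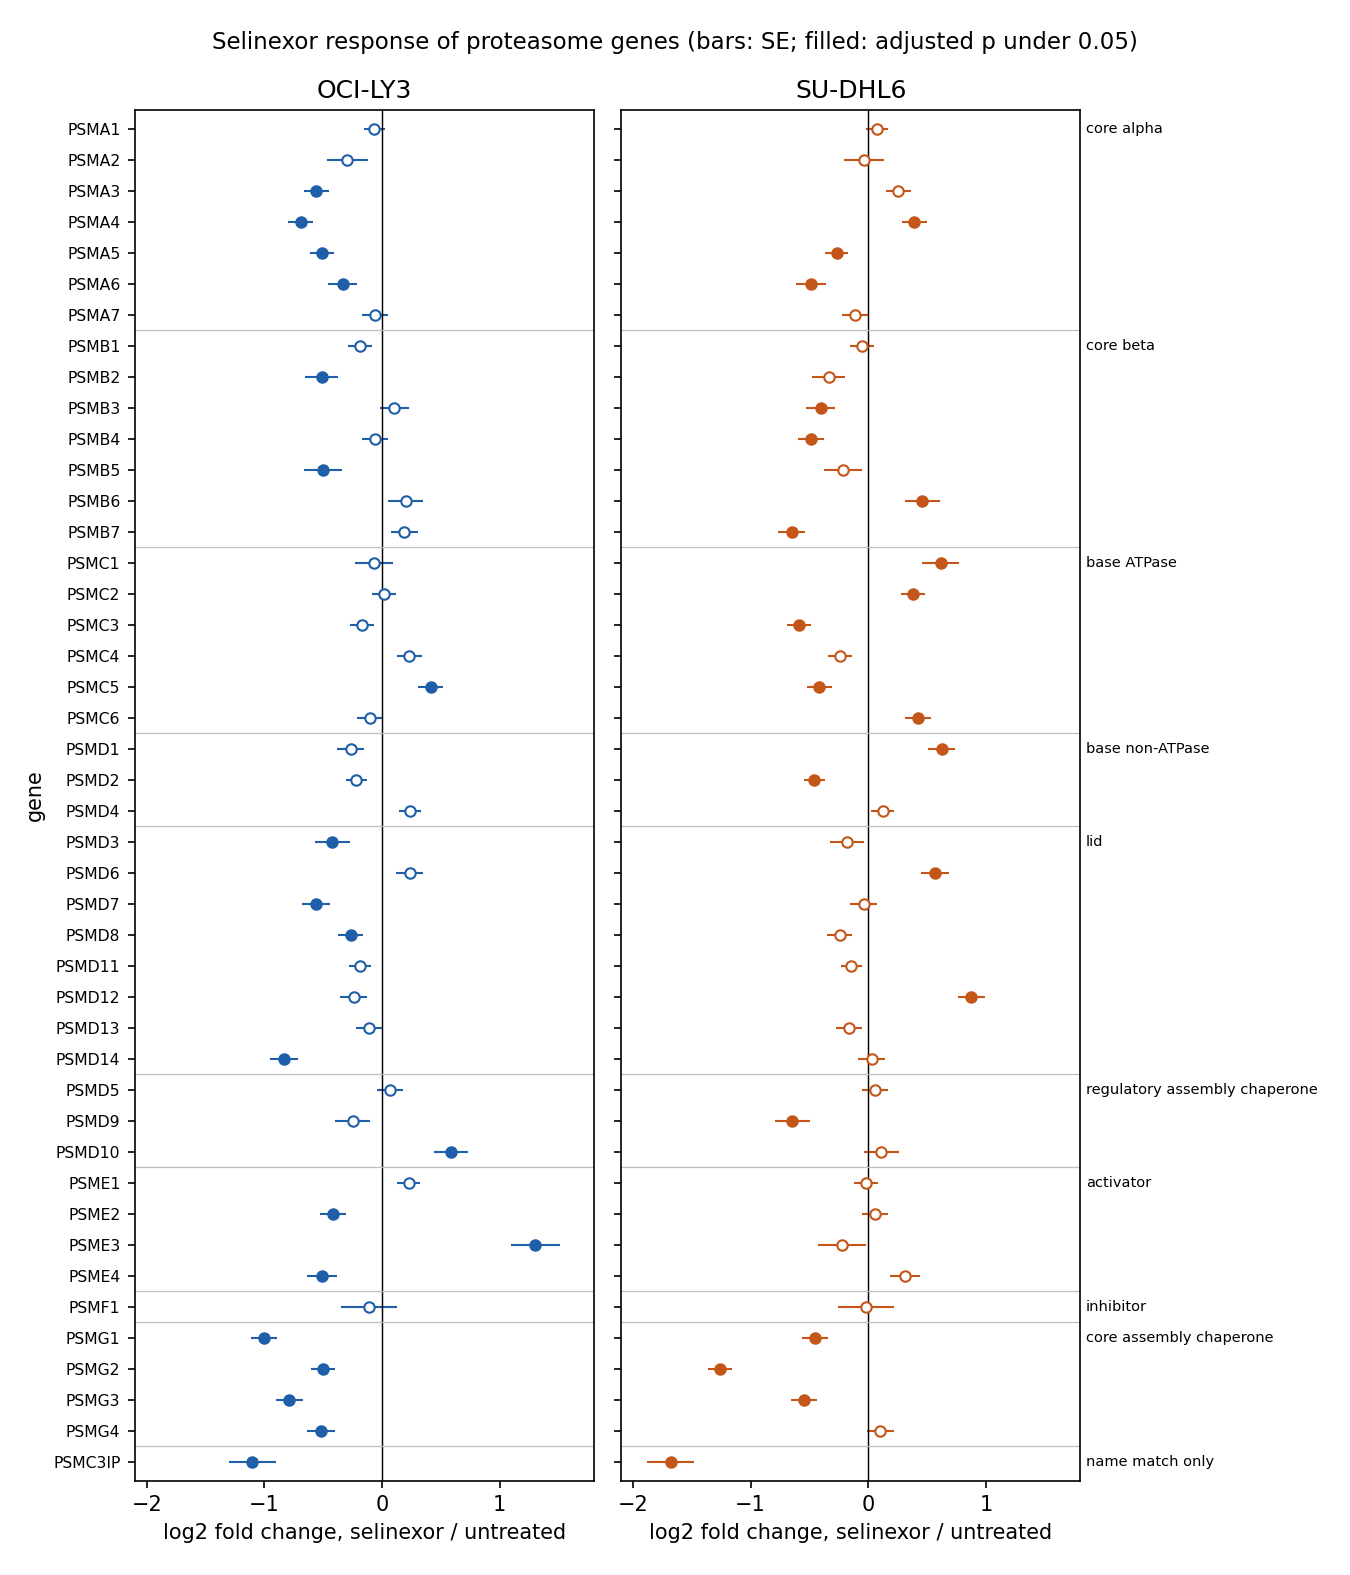
Log2 fold change of selinexor-treated over untreated libraries (x axis) for the 44 members with reads in both lines (y axis, grouped by role), with bars of 1 SE and filled points for an adjusted p under 0.05. The 4 PSMG chaperones lie left of 0 in OCI-LY3, and the regulatory subunits spread from -0.59 to 0.88 in SU-DHL6.

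Both lines shared 6 falls, in PSMA5, PSMA6, PSMG1, PSMG2, PSMG3 and PSMC3IP, and no rise. How many of all genes moved in both lines was not counted, so the counts in this paragraph have no background beside them and are a description only. A further 2 members were called in opposite directions: PSMA4 fell in OCI-LY3 and rose in SU-DHL6, and PSMC5 rose in OCI-LY3 and fell in SU-DHL6. In OCI-LY3 but not SU-DHL6, 12 members were called, and 13 the other way round, PSMA8 aside. The remaining 11 passed in neither: PSMA1, PSMA2, PSMA7, PSMB1, PSMC4, PSMD4, PSMD5, PSMD11, PSMD13, PSME1 and PSMF1. Their log2 fold changes ran from -0.30 (PSMA2) to 0.24 (PSMD4) in OCI-LY3 and from -0.24 (PSMC4) to 0.12 (PSMD4) in SU-DHL6. A call in 1 line and not in the other is no test of a difference, and that test is given further on.

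Promoters are shown because NFE2L1 binds antioxidant response elements, whose core was searched as TGACNNNGC on both strands. RefSeq promoters of GRCh38.p14, from 250 bases before to 50 after a start, were matched for 40 of the 46 members by symbol; PSMA7, PSMB1, PSMB6, PSMB7, PSMD4 and PSMG3 had no entry. The motif was present for 14 of the 40 (35%), against 16.1% of 27305 genes with a promoter. The carriers were PSMA4, PSMB3, PSMC4, PSMC5, PSMD1, PSMD3, PSMD5, PSMD9, PSMD12, PSME1, PSME2, PSME4, PSMG1 and PSMG2. A CCAAT box, the letters bound by NF-Y, was present for 20 of 40 (50%), against 39.7% of genes, and a heat shock element on either strand for none, against 0.608%. Member promoters had a median GC content of 62%, against 58.7% for all, and the share of motif matches at equal GC was not tested. The windows of 4 carriers that moved differently in SU-DHL6 follow, 5′ to 3′ on the strand of the gene, with the motif in capitals: PSMD12 rose, PSMD9 and PSMB3 fell, and PSME1 was not called.
PSMD12 (chr17:67366709-67366767, minus strand, motif starting 165 bases before the start): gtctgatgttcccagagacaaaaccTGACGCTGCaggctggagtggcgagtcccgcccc
PSMD9 (chr12:121888663-121888721, plus strand, 102 bases before): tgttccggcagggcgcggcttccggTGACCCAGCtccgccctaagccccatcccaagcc
PSMB3 (chr17:38752612-38752670, plus strand, 104 bases before): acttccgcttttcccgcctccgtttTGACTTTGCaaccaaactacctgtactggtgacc
PSME1 (chr14:24136083-24136141, plus strand, 86 bases before): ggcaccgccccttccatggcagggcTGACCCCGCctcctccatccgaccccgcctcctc

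Calls were counted for members with and without the motif. In OCI-LY3, 1 of the 14 carriers rose and 6 fell (median -0.26), against 2 and 10 of the 24 tested members without it (median -0.20). In SU-DHL6, 3 carriers rose and 5 fell (median -0.10), against 4 and 7 of 25 (median -0.14), PSMA8 included. The largest rise in SU-DHL6, PSMD12, and the fall with the smallest adjusted p there, PSMG2, both belong to carriers. A match is a description of letters in this window and not a site.

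Among the alpha subunits, 4 of 7 fell in OCI-LY3 (PSMA3, PSMA4, PSMA5 and PSMA6), and in SU-DHL6 PSMA4 rose and PSMA5 and PSMA6 fell. PSMA4 (chromosome 15, 78540405 to 78552419, GRCh38, plus strand), an alpha subunit of the gate, stood at 91.3, 104 and 108 CPM in untreated and 60.9, 57.5 and 69.6 CPM in treated OCI-LY3. It stood at 77.9, 65.4 and 75.3 CPM in untreated and 96.5, 99.2 and 90.8 CPM in treated SU-DHL6. The groups did not overlap in either line: the level fell in OCI-LY3 by 0.69 ± 0.11 (log2, SE; adjusted p = 0.00013) and rose in SU-DHL6 by 0.39 ± 0.11 (adjusted p = 0.00861). Untreated OCI-LY3 held the higher level, and in treated cells the order of the lines was the reverse. PSMA3, another alpha subunit, stood at 77.5, 77 and 73.8 CPM in untreated and 48.3, 52.7 and 54 CPM in treated OCI-LY3, a fall of 0.56 ± 0.11. The SU-DHL6 libraries held 38.5, 32.4 and 30.3 CPM untreated and 43.1, 39.2 and 38.6 CPM treated; the groups did not overlap, but the change of 0.26 ± 0.11 was not called (adjusted p = 0.068).

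PSMA6 and PSMA2 each share exon bases with a gene model on the same strand, to which the authors' counting gave between 24 and 506 counts and between 0 and 714 counts per library. With these counts and those of pseudogenes merged in, PSMA2 was called lower in OCI-LY3 (-0.38 ± 0.14, adjusted p = 0.0445), as it was without treated library 3 (-0.47). PSMA6 itself stood at 107, 111 and 87.7 CPM in untreated and 91.9, 72.3 and 78.3 CPM in treated OCI-LY3, and these groups overlapped. Leaving out untreated library 1 or 2 or treated library 2 or 3 ended its call there (adjusted p from 0.104 to 0.165). PSMA5 fell in SU-DHL6 by 0.27 ± 0.10 (adjusted p = 0.0386), and leaving out library 2 or 3 of either group ended that call (adjusted p from 0.0659 to 0.157). The testis form PSMA8 had 13, 14 and 17 counts in untreated SU-DHL6 and 6, 3 and 6 in treated SU-DHL6, a fall of 1.83 ± 0.47 (adjusted p = 0.0102). In OCI-LY3 it had 0 counts in all 6 libraries, so no fold between the lines is given.

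Of the 7 beta subunits, PSMB2 and PSMB5 fell in OCI-LY3, while in SU-DHL6 PSMB3, PSMB4 and PSMB7 fell and PSMB6 rose. The 3 active-site subunits did not move together in either line. PSMB7, the trypsin-like site (chromosome 9, 124353466 to 124415444, minus strand), stood at 153, 136 and 156 CPM in untreated and 109.5, 78.3 and 95.1 CPM in treated SU-DHL6. Every treated library was below every untreated one, a fall of 0.65 ± 0.12 (adjusted p = 0.000431). In OCI-LY3 it stood at 225, 205 and 201 CPM untreated and 226, 237 and 255 CPM treated; every treated value was above every untreated one, but the change of 0.19 ± 0.11 was not called (adjusted p = 0.205).

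PSMB5, the chymotrypsin-like site that proteasome inhibitors bind, stood at 108, 113 and 81.4 CPM in untreated and 72.7, 76.7 and 63.4 CPM in treated OCI-LY3. The fall of 0.50 ± 0.16 (adjusted p = 0.0201) was no longer called without untreated library 1 or 2 or treated library 3 (adjusted p from 0.0695 to 0.0858). In SU-DHL6 PSMB5 stood at 41.8, 62 and 48.3 CPM in untreated and 42.4, 50.5 and 38 CPM in treated libraries, which overlapped, with a change of -0.22 ± 0.16 (adjusted p = 0.302). PSMB6, the caspase-like site, stood at 47.2, 69.8 and 56.3 CPM in untreated and 92.6, 68.9 and 77.1 CPM in treated SU-DHL6. Those groups overlapped, and the rise of 0.46 ± 0.15 (adjusted p = 0.0217) was not called without untreated library 1 or treated library 1 (adjusted p from 0.0846 to 0.108). In OCI-LY3 PSMB6 stood at 63.3, 64.9 and 71 CPM untreated and 76.7, 85.6 and 66.5 CPM treated, also overlapping (0.20 ± 0.15, adjusted p = 0.296). PSMB2 fell in OCI-LY3 by 0.51 ± 0.14, a call that ended without treated library 2 (adjusted p = 0.0528). PSMB3 fell in SU-DHL6 by 0.40 ± 0.12, a call that ended without untreated library 3 or treated library 2 or 3 (adjusted p from 0.0765 to 0.0811). PSMB4 fell there by 0.49 ± 0.11 (adjusted p = 0.00252).

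Of the 6 ATPases of the base, PSMC5 rose in OCI-LY3 and the others were not called there; in SU-DHL6 PSMC1, PSMC2 and PSMC6 rose and PSMC3 and PSMC5 fell. PSMC5 (chromosome 17, 63827152 to 63832026, plus strand) stood at 62.5, 60.5 and 70.5 CPM in untreated and 91.9, 85.1 and 80.5 CPM in treated OCI-LY3, a rise of 0.41 ± 0.11 (adjusted p = 0.00545). It stood at 93, 95.6 and 108 CPM in untreated and 81.5, 72.6 and 68.1 CPM in treated SU-DHL6, a fall of 0.42 ± 0.10 (adjusted p = 0.00517). Neither pair of groups overlapped. With library totals the fall in SU-DHL6 was not called (-0.15, adjusted p = 0.21). FTSJ3, on the opposite strand, covers 19.5% of the exon bases of PSMC5, and the strand setting of the counts is not given in the sources used here.

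PSMC1 stood at 19.3, 13.4 and 18.9 CPM in untreated and 31.3, 25 and 22.6 CPM in treated SU-DHL6, without overlap, a rise of 0.61 ± 0.16 (adjusted p = 0.00629). In OCI-LY3 it stood at 17.8, 18.5 and 16.5 CPM untreated and 15.6, 18.2 and 16.6 CPM treated, which overlapped. Its values are uncertain: its pseudogenes held up to 454% of its own counts in a library, and NRDE2 covers 75.8% of its exon bases on the opposite strand. PSMC1P1, the pseudogene with most of these counts, held 837 to 989 counts in untreated and 1350 to 1500 in treated SU-DHL6. PSMC2 was high in SU-DHL6 throughout, at 125, 111 and 112 CPM untreated and 171, 140.5 and 141 CPM treated, against 60.9, 58.3 and 61.1 CPM and 56.5, 61.2 and 65 CPM in OCI-LY3. It rose in SU-DHL6 by 0.38 ± 0.10 (adjusted p = 0.00698). PSMC3 went the other way in that line, from 148, 148 and 149.7 CPM to 116, 90.2 and 90.9 CPM, a fall of 0.59 ± 0.10 (adjusted p = 0.000408). PSMC6 rose there by 0.43 ± 0.11. PSMC4 was called in neither line, with 0.23 ± 0.11 in OCI-LY3 and -0.24 ± 0.11 in SU-DHL6.

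The base also holds PSMD1 and PSMD2, large scaffold subunits, and PSMD4, a ubiquitin receptor. PSMD1 (chromosome 2, 231056864 to 231172827, plus strand) stood at 80.3, 60.7 and 66.3 CPM in untreated and 108, 113 and 98.4 CPM in treated SU-DHL6, a rise of 0.62 ± 0.11 (adjusted p = 0.000462). PSMD2 fell in the same line by 0.46 ± 0.09 (adjusted p = 0.00117), so the scaffold subunits moved apart there; with library totals the fall of PSMD2 was not called (-0.19, adjusted p = 0.0964). In OCI-LY3 PSMD1 stood at 69.9, 66.3 and 73.5 CPM untreated and 58.9, 53.7 and 61.8 CPM treated. The treated values were all below the untreated ones, but the change of -0.27 ± 0.11 was not called (adjusted p = 0.0689).

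Of the 8 lid subunits among the members, PSMD3, PSMD7, PSMD8 and PSMD14 fell in OCI-LY3 and none rose, and in SU-DHL6 PSMD6 and PSMD12 rose and none fell. PSMD14 (chromosome 2, 161308038 to 161411717, plus strand), the deubiquitinase, stood at 65.3, 69.6 and 69.4 CPM in untreated and 34.9, 39.5 and 40.2 CPM in treated OCI-LY3. All treated values lay far below the untreated ones, a fall of 0.83 ± 0.12 (adjusted p = 5.63e-05). Its levels in SU-DHL6 were 70.9, 55.4 and 58.1 CPM untreated and 69.8, 61.1 and 57 CPM treated, which overlapped (0.03 ± 0.12, adjusted p = 0.884). PSMD7, the catalytically inactive partner of PSMD14, also fell in OCI-LY3, by 0.56 ± 0.12, and was not called in SU-DHL6 (-0.04 ± 0.12). PSMD8 fell in OCI-LY3 by 0.27 ± 0.10 at the edge of the threshold (adjusted p = 0.0498); leaving out any of the 6 libraries of that line ended the call (adjusted p from 0.0713 to 0.16). Its values there were 247, 268 and 258 CPM untreated and 215, 206 and 222 CPM treated. PSMD3 fell from 282, 249 and 321 CPM to 209, 206 and 221 CPM, by 0.42 ± 0.15, and this call survived only without untreated library 2 among the 6 omissions (adjusted p from 0.0538 to 0.13 in the others).

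PSMD12 (chromosome 17, 67337916 to 67366627, minus strand), a lid subunit, stood at 30.7, 28.2 and 22.8 CPM in untreated and 52.4, 50.1 and 47.4 CPM in treated SU-DHL6. The rise of 0.88 ± 0.11 (adjusted p = 3.09e-05) was the largest of any member in that line. In OCI-LY3 it stood at 37.8, 36.9 and 35.6 CPM untreated and 32.5, 29.3 and 31.7 CPM treated; all treated values were lower, but the change of -0.24 ± 0.11 was not called (adjusted p = 0.104). PSMD6 stood at 54.9, 54 and 53.7 CPM in untreated and 92.2, 68.8 and 80.3 CPM in treated SU-DHL6, a rise of 0.57 ± 0.12 (adjusted p = 0.00127). In OCI-LY3 it stood at 78.6, 66.6 and 73.5 CPM untreated and 80.1, 82.2 and 95.4 CPM treated and was not called (0.24 ± 0.12). PSMD11 and PSMD13 were called in neither line.

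**Figure D2:**
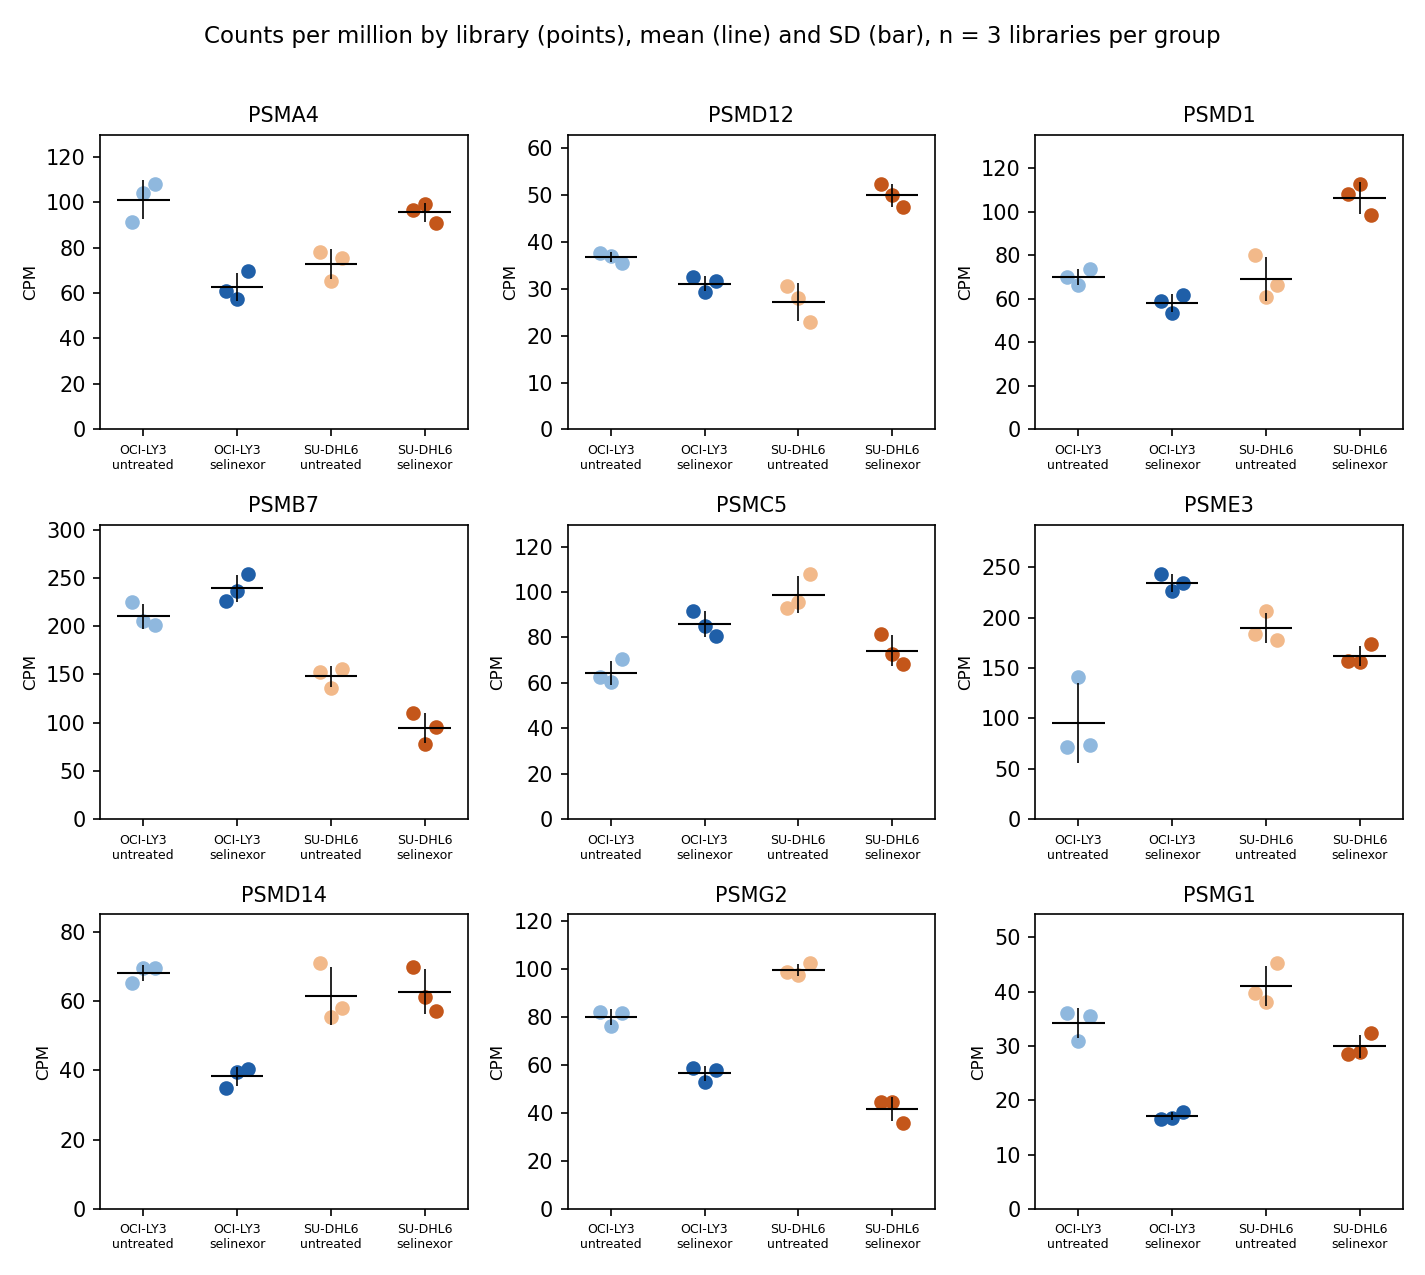
CPM (y axis, from 0) of 9 members in each of the 12 libraries (points) of the 4 groups (x axis), with the group mean as a line and the SD as a bar. PSMA4 and PSMC5 moved in opposite directions in the lines, and 1 untreated OCI-LY3 library of PSME3 stood at 141 CPM beside 71.5 and 73.1.

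All 4 chaperones of the core fell in OCI-LY3 and 3 of them in SU-DHL6. PSMG1 and PSMG2 form a pair that helps arrange the alpha ring, and PSMG3 and PSMG4 form another. PSMG1 (chromosome 21, 39174769 to 39183851, minus strand) stood at 36.1, 31 and 35.6 CPM in untreated and 16.6, 16.7 and 17.9 CPM in treated OCI-LY3, a fall of 1.00 ± 0.11 (adjusted p = 7.15e-06). In SU-DHL6 it stood at 39.7, 38.2 and 45.2 CPM untreated and 28.5, 29 and 32.4 CPM treated, a fall of 0.45 ± 0.11 (adjusted p = 0.00403) that was not called with library totals (-0.19, adjusted p = 0.202). PSMG2 stood at 99, 97.7 and 102 CPM in untreated and 44.4, 44.4 and 35.8 CPM in treated SU-DHL6. That fall of 1.26 ± 0.10 (adjusted p = 3.01e-07) had the smallest adjusted p of any member in either line. In OCI-LY3 PSMG2 stood at 82, 76.5 and 81.8 CPM untreated and 58.7, 53.1 and 58.1 CPM treated, a fall of 0.50 ± 0.10 (adjusted p = 0.00104).

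PSMG3 stood at 38.2, 39.1 and 40.0 CPM in untreated and 22.6, 22.3 and 22.9 CPM in treated OCI-LY3, a fall of 0.79 ± 0.11 (adjusted p = 7.36e-05), with little spread among replicates. The SU-DHL6 libraries held 44.2, 59.7 and 54.5 CPM untreated and 38.2, 36 and 34.3 CPM treated, a fall of 0.55 ± 0.11 (adjusted p = 0.00128). PSMG4 stood at 36.8, 43.6 and 45.5 CPM in untreated and 31.9, 30.5 and 25.4 CPM in treated OCI-LY3, a fall of 0.52 ± 0.12 (adjusted p = 0.0022). Its levels in SU-DHL6 were 29.2, 31.1 and 29.4 CPM untreated and 32, 31.1 and 33.3 CPM treated, which overlapped, with no call (0.10 ± 0.11). In both lines every PSMG gene that was called fell, except that with library totals PSMG4 was called higher in SU-DHL6 (0.37, adjusted p = 0.0164).

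The chaperones of the base showed no such pattern. PSMD10, also known as gankyrin, stood at 28.5, 27.3 and 27.2 CPM in untreated and 34.9, 42.6 and 47.3 CPM in treated OCI-LY3, a rise of 0.59 ± 0.15 (adjusted p = 0.00451). In SU-DHL6 it stood at 29.6, 22.2 and 27.4 CPM untreated and 33.4, 26.6 and 25.6 CPM treated, which overlapped, with no call (0.11 ± 0.15). PSMD9 fell in SU-DHL6 by 0.65 ± 0.15 (adjusted p = 0.0029) and was not called in OCI-LY3, and PSMD5 was called in neither line. PSMC3IP, which is no proteasome gene, stood at 5.99, 6.67 and 5.22 CPM in untreated and 3.34, 2.63 and 2.34 CPM in treated OCI-LY3. The SU-DHL6 libraries held 6.65, 7.52 and 7.3 CPM untreated and 2.49, 2.32 and 1.87 CPM treated. Its falls of 1.10 ± 0.20 and 1.68 ± 0.20 (adjusted p = 0.00048 and 1.23e-05) thus belong to the name rule and not to the complex; MLX covers 29.9% of its exon bases on the opposite strand.

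The activators went separate ways in OCI-LY3. PSME3 (chromosome 17, 42824385 to 42843758, plus strand) encodes the nuclear activator and stood at 71.5, 141 and 73.1 CPM in untreated and 244, 226 and 234 CPM in treated OCI-LY3. Scaled by library totals, the untreated replicates differed by up to 1.93-fold. By fold the second untreated library was closer to the treated libraries than to its replicates, but all treated values were higher. The rise of 1.30 ± 0.21 (adjusted p = 0.000309) was the largest among the members, and it was called without any single library. In SU-DHL6 PSME3 stood at 184, 206 and 178 CPM untreated and 157, 156 and 174 CPM treated; the treated values were all lower, but the change of -0.23 ± 0.21 was not called (adjusted p = 0.409). The treated OCI-LY3 libraries thus stood above all SU-DHL6 libraries, whereas the untreated ones stood below them.

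PSME1 and PSME2 encode the partners of a single interferon-inducible ring and lie 4.39 kb apart on chromosome 14. PSME1 stood at 236, 263 and 253 CPM in untreated and 286, 285 and 308 CPM in treated OCI-LY3, a change of 0.23 ± 0.10 that was not called (adjusted p = 0.085). PSME2 stood at 96, 81.1 and 92.5 CPM untreated and 66, 61.4 and 74.4 CPM treated in the same libraries, a fall of 0.42 ± 0.11 (adjusted p = 0.0075). In SU-DHL6 neither was called: PSME1 stood at 109, 126 and 132 CPM untreated and 132, 121 and 108 CPM treated. PSME2 stood there at 86.1, 80.2 and 72.4 CPM untreated and 91.7, 77.7 and 78.8 CPM treated. With library totals PSME1 was called higher in SU-DHL6 (0.24, adjusted p = 0.0379), against -0.02 ± 0.10 with TMM scaling.

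PSME4, an activator known for the degradation of acetylated histones, stood at 80.1, 73.1 and 87.2 CPM in untreated and 49.6, 55.6 and 63.4 CPM in treated OCI-LY3, a fall of 0.51 ± 0.13 (adjusted p = 0.00519). Its levels in SU-DHL6 were 120.3, 93.1 and 106 CPM untreated and 115, 135 and 146 CPM treated, which overlapped, and the change of 0.31 ± 0.13 was not called (adjusted p = 0.0619). PSMF1 stood at 72.2, 93.7 and 102 CPM in untreated and 96.6, 57.7 and 94.2 CPM in treated OCI-LY3, and at 56.5, 82.3 and 80.2 CPM untreated and 85.8, 53 and 77.5 CPM treated in SU-DHL6. Its groups overlapped in both lines. Scaled by library totals, replicates of the treated groups differed by 1.64-fold and 1.58-fold. Among the 44 members with reads in every library, a range over 1.5-fold within a group occurred in 5 pairs of member and group. None of these passed 2-fold by library totals. PSMA8, with 6, 3 and 6 counts in treated SU-DHL6, was not among the 44.

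The test of the difference between the responses (SU-DHL6 minus OCI-LY3) called 20 members, 12 higher and 8 lower in SU-DHL6, against 36.9% of all genes (17% higher, 19.9% lower). The largest positive differences were PSMD12 (1.12 ± 0.16, adjusted p = 0.000117), PSMA4 (1.08 ± 0.15, adjusted p = 8.87e-05), PSMD1 (0.89 ± 0.16) and PSMD14 (0.86 ± 0.16). The largest negative ones were PSME3 (-1.53 ± 0.29, adjusted p = 0.00149), PSMB7 (-0.84 ± 0.16, adjusted p = 0.00112), PSMC5 (-0.83 ± 0.15) and PSMG2 (-0.76 ± 0.14). These 8 were called without any single library, and with library totals all 8 kept their direction and call, with PSMB7, PSMC5 and PSMG2 at -0.46, -0.45 and -0.38. Both comparisons of a line with its controls enter this test, so it shares their libraries. By role, 6 regulatory subunits had the higher response in SU-DHL6 and 3 the lower, against 2 and 3 core subunits. The alpha and beta subunits split, with 2 of 7 alpha subunits (PSMA3, PSMA4) higher and 3 of 7 beta subunits (PSMB3, PSMB4, PSMB7) lower.

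Many smaller differences depended on the libraries or the scaling. With library totals 24 members were called higher and 4 lower in SU-DHL6, and PSMB3, PSMB4, PSMC3 and PSMC4 were no longer called. The calls of PSMB3, PSMB4 and PSMC3 each ended in 9 of the 12 omissions of 1 library (adjusted p up to 0.102, 0.137 and 0.101). The calls of PSMC4 and PSME2 each ended in 7 (up to 0.0811 and 0.0858), that of PSMC1 in 6 (up to 0.0806) and that of PSMD7 in 4 (up to 0.0704). Without the first untreated OCI-LY3 library, 14 members were called in place of 20.

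**Figure D3:**
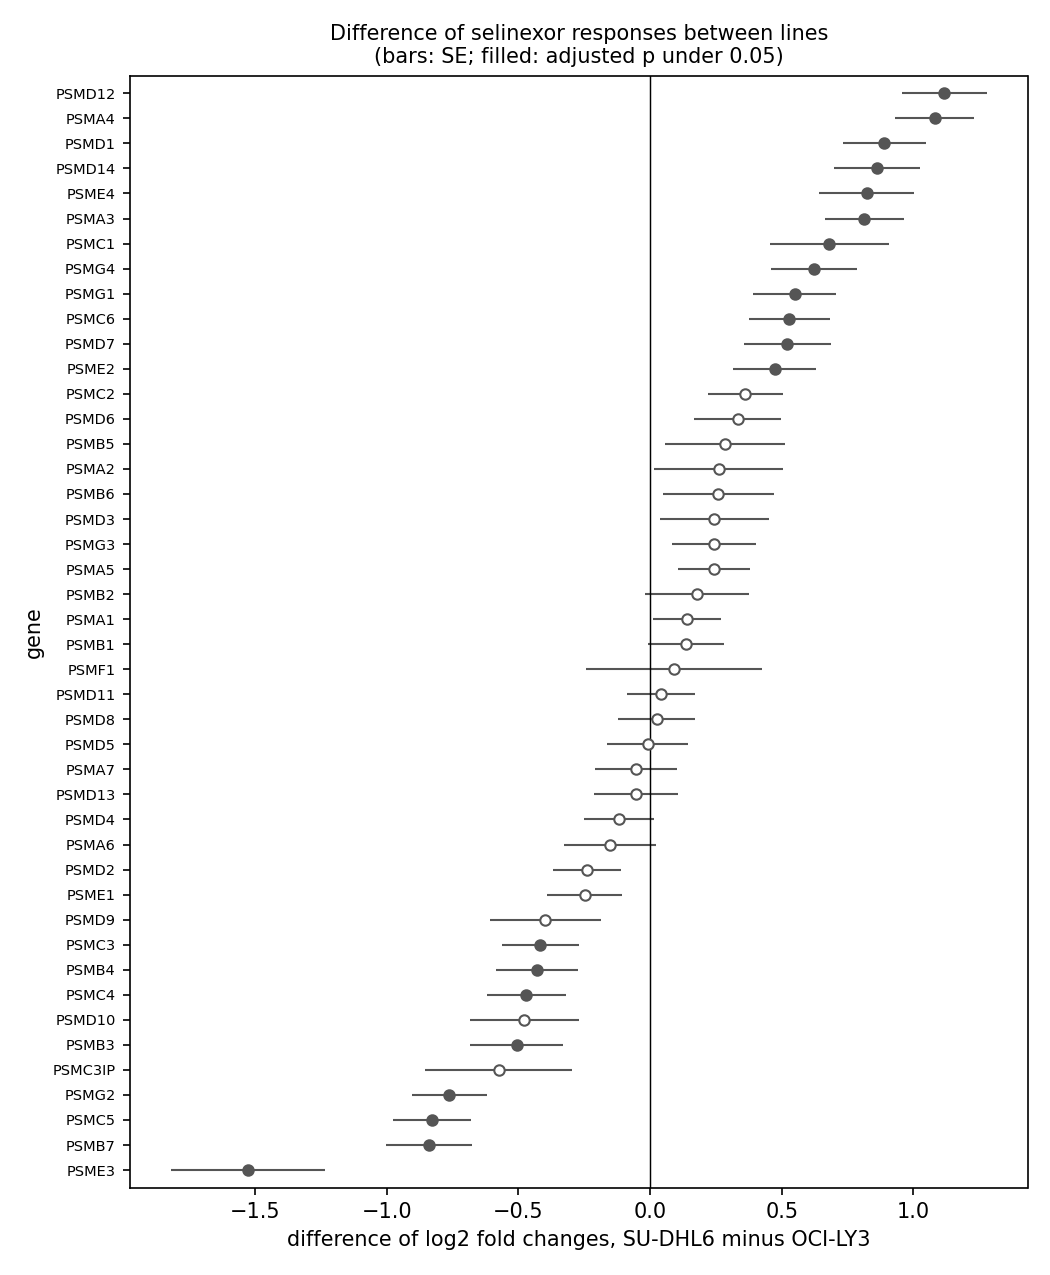
Difference of the log2 fold changes between the lines, SU-DHL6 minus OCI-LY3 (x axis), for 44 members in order of size (y axis), with bars of 1 SE and filled points for an adjusted p under 0.05. PSMD12 (1.12) and PSMA4 (1.08) stand at the top and PSME3 (-1.53) at the bottom.

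In the untreated lines, 26 of the 45 members differed, 13 higher in OCI-LY3 and 13 lower, against 67.3% of all genes (33.6% higher, 33.7% lower). The members' share of 57.8% was below that background. The lid members leaned to OCI-LY3, with 5 of 8 higher and PSMD13 lower, and the ATPases to SU-DHL6, with 4 of 6 lower in OCI-LY3 and none higher. The largest differences (OCI-LY3 minus SU-DHL6) were PSMA3 (1.17 ± 0.11, adjusted p = 2.2e-07), PSME1 (1.03 ± 0.10, adjusted p = 5.03e-07), PSMB5 (0.99 ± 0.16) and PSMD8 (0.75 ± 0.10) on the higher side. On the lower side were PSMA8, at 0 counts in OCI-LY3, PSME3 (-0.99 ± 0.21), PSMC2 (-0.95 ± 0.10, adjusted p = 1.22e-06) and PSMC5 (-0.62 ± 0.10). For PSMD8 the values in untreated SU-DHL6 were 134, 164 and 163 CPM. The groups of all these genes did not overlap. Leaving out 1 library ended the calls of PSMB3, PSMD11, PSME4, PSMG1 and PSMG2 (adjusted p up to 0.116, 0.0921, 0.0549, 0.241 and 0.0519); for PSME4 and PSMG2 it was untreated OCI-LY3 library 2.

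Levels between genes were compared per length, as the deposited FPKM (fragments scaled to gene length and library size). Their lengths matched the sum of every distinct exon of a gene within 1% for 92.6% of 11313 genes with at least 50 counts, so bases shared by isoforms count repeatedly. Levels by the length of merged exons, in which each base counts once, are therefore given beside them. In the core, the highest FPKM in untreated OCI-LY3 was that of PSMB7 (81.6 ± 5.77, SD, n = 3), ahead of PSMB3 (67.4 ± 2.97), and in untreated SU-DHL6 that of PSMB3 (88.1 ± 2.48), ahead of PSMB7 (60.5 ± 5.4). PSMB3 (chromosome 17, 38752736 to 38764231, plus strand) stood at 134, 148 and 144 CPM in untreated and 147, 159 and 151 CPM in treated OCI-LY3, and at 164, 182 and 185 CPM untreated and 167, 117 and 118 CPM treated in SU-DHL6. The lowest core subunit was PSMA4 in all 4 groups, at 6.29 ± 0.489 FPKM in untreated and 3.6 ± 0.382 FPKM in treated OCI-LY3, and 4.76 ± 0.549 and 7.48 ± 0.249 FPKM in SU-DHL6. By merged exons PSMB4 was the highest in OCI-LY3 and PSMB3 in SU-DHL6, and PSMA6 replaced PSMA4 as the lowest in treated SU-DHL6. The neighbours PSMA4 and PSMA3 in untreated SU-DHL6, at 10.4 and 10.8 by merged exons, did not differ beyond their spread.

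In the regulatory particle the lowest subunit was PSMC1, whose values are uncertain as above, at 1.81 to 3.84 FPKM over the 4 groups, and then PSMC6 at 2.41 to 4.19 FPKM. The highest by FPKM were PSMD3 in OCI-LY3 (43.7 ± 5.6 untreated, 30.1 ± 1.37 treated), PSMC3 in untreated SU-DHL6 (36.7 ± 1.18) and PSMC4 in treated SU-DHL6 (35.2 ± 3.17). PSMD3 in treated SU-DHL6 (34.2 ± 3.87) and PSMC4 there did not differ beyond their spread, nor did PSMC4 (34.6 ± 2.79) and PSMC3 in untreated SU-DHL6. In CPM, which unlike FPKM use TMM-scaled totals, PSMC4 stood at 115, 143 and 136 in untreated and 126, 109 and 99.9 in treated SU-DHL6. PSMD3 stood at 152, 210.0 and 236 CPM untreated and 188, 154 and 186 CPM treated there. By merged exons PSMD8 was the highest in OCI-LY3, and PSMC3 and PSMC4 again in SU-DHL6. Within a particle whose subunits are built in equal numbers, mRNA levels thus spanned 10.7-fold to 23.8-fold in the core and 9.15-fold to 21.4-fold in the regulatory particle by FPKM.

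**Figure D4:**
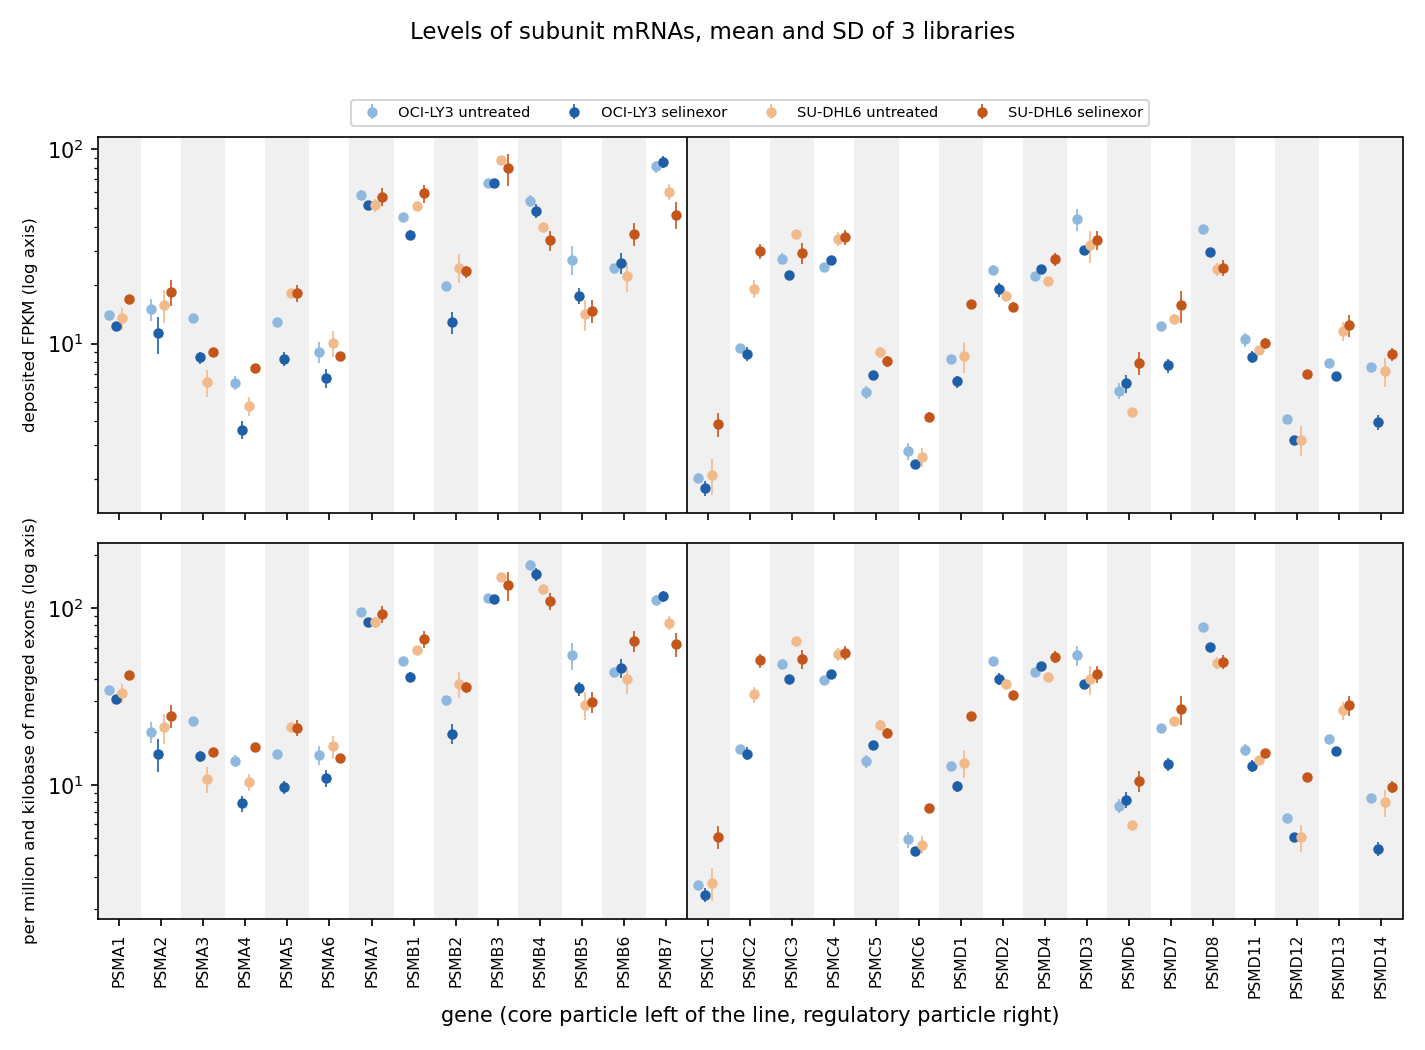
Mean level of the 31 subunit mRNAs (x axis; core particle left of the line) in the 4 groups, with bars of the SD over 3 libraries, on log axes, by deposited FPKM (top) and by merged exon length (bottom). By FPKM, PSMB7 is the highest core mRNA in OCI-LY3 (81.6 untreated) and PSMB3 in SU-DHL6 (88.1 untreated), and PSMC1 is the lowest of the regulatory particle in every group.

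The summed FPKM of the 14 core subunits was above that of the 17 regulatory subunits in every library. In SU-DHL6 the ratio was 1.63, 1.67 and 1.62 in untreated and 1.57, 1.44 and 1.44 in treated libraries, so every treated library lay below every untreated one. In OCI-LY3 it was 1.77, 1.82 and 1.64 in untreated and 1.83, 1.88 and 1.81 in treated libraries, which overlapped. As log2 ratios, the groups stood at 0.80 ± 0.08 and 0.88 ± 0.03 in OCI-LY3 and at 0.71 ± 0.03 and 0.57 ± 0.07 in SU-DHL6 (SD, n = 3). In SU-DHL6 the core sum was 421 ± 7.08 untreated and 430.1 ± 47.3 treated, and the regulatory sum 257 ± 3.22 and 289.8 ± 17.2. In these FPKM the regulatory sums did not overlap between the groups, while the core sums did. FPKM are scaled by library totals, under which the median log2 fold change of all genes in SU-DHL6 was 0.27. TMM factors there were 0.974 to 1.039 in untreated and 1.167 to 1.233 in treated libraries. The higher regulatory sum is therefore not a rise relative to the typical gene, and the sums were not recomputed with TMM scaling. In OCI-LY3 both sums were lower after treatment, at 449 ± 7.76 and 396 ± 13.2 for the core and 257 ± 9.59 and 215 ± 9.21 for the regulatory particle. The pattern depended on the summary. With the difference of the median log2 FPKM of core and regulatory subunits, the OCI-LY3 libraries stood at 1.17, 1.20 and 1.14 untreated and at 1.08, 0.93 and 0.89 treated, lower without overlap. By the same measure the SU-DHL6 libraries stood at 0.71, 1.08 and 0.64 untreated and at 0.82, 0.43 and 0.42 treated, which overlapped. For the sums, merged exon lengths gave 1.6, 1.67 and 1.6 against 1.56, 1.43 and 1.44 in SU-DHL6.

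Within the core, the balance of alpha to beta subunits shifted in opposite directions in the lines. The ratio of summed alpha to summed beta FPKM was 0.395, 0.409 and 0.408 in untreated and 0.352, 0.348 and 0.348 in treated OCI-LY3. In SU-DHL6 it was 0.427, 0.4 and 0.373 in untreated and 0.443, 0.477 and 0.47 in treated libraries. The groups did not overlap in either line, by merged exons either (0.368 to 0.378 and 0.323 to 0.33 in OCI-LY3, 0.352 to 0.406 and 0.427 to 0.464 in SU-DHL6). These ratios were chosen after the subunits' values were seen and carry no test.

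**Figure D5:**
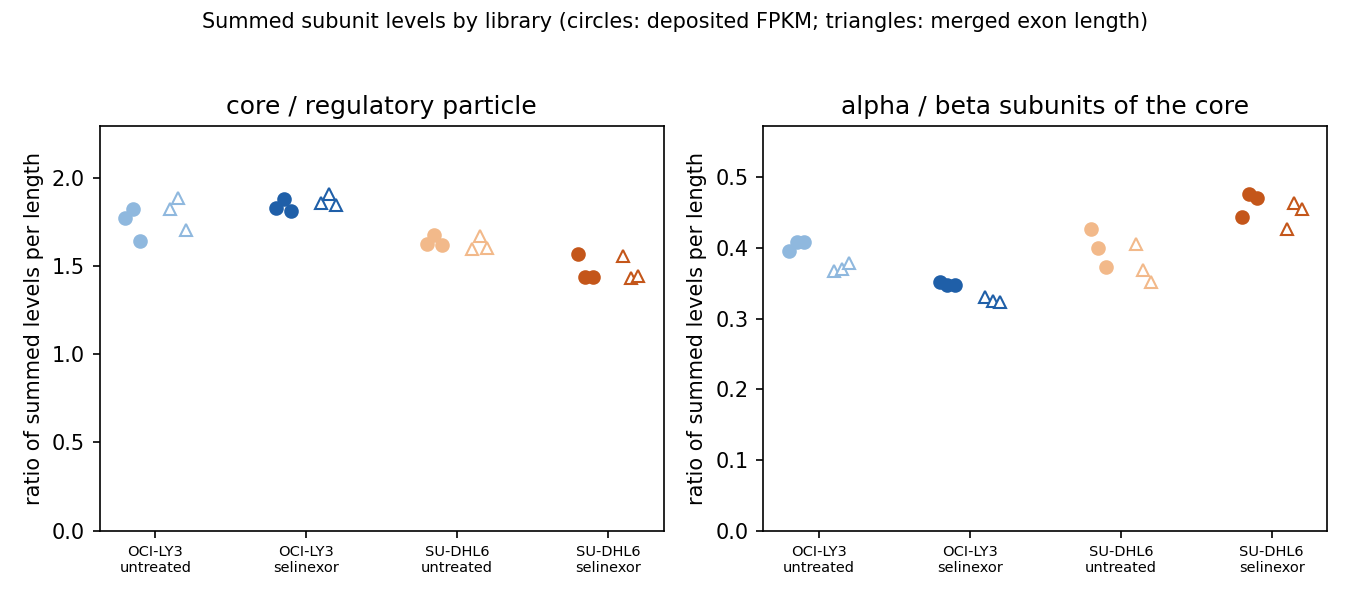
Ratio of summed core to summed regulatory levels (left) and of summed alpha to summed beta levels (right) on axes from 0, for each of the 12 libraries in the 4 groups, by deposited FPKM (circles) and merged exon length (triangles). Treated SU-DHL6 libraries lie at 1.44 to 1.57 on the left, below the untreated ones at 1.62 to 1.67, and the alpha to beta ratio is lower in treated OCI-LY3 and higher in treated SU-DHL6.

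The immunoproteasome subunits PSMB8, PSMB9 and PSMB10, which replace the active-site subunits in immune cells, were all higher in untreated OCI-LY3 than in untreated SU-DHL6, by 1.69 ± 0.11, 2.29 ± 0.12 and 1.28 ± 0.12. In OCI-LY3 PSMB8 and PSMB9 fell by 0.53 ± 0.11 and 0.61 ± 0.11, and PSMB10 was not called. PSMB9 stood at 19, 22.2 and 19.4 CPM in untreated and 11.6, 9.08 and 9.95 CPM in treated SU-DHL6, a fall of 0.98 ± 0.12 (adjusted p = 2.07e-05), while PSMB8 (-0.27 ± 0.11) and PSMB10 (-0.22 ± 0.12) were not called. PSMB9 takes the place of PSMB6, and the ratio of PSMB9 to PSMB6 FPKM in SU-DHL6 went from 0.249, 0.197 and 0.213 to 0.0773, 0.0816 and 0.0798. In OCI-LY3 it went from 0.864, 1.02 and 0.873 to 0.538, 0.437 and 0.62. Neither pair of groups overlapped.

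Other genes of the pathway were taken from lists. Of 14 tested partners of the particle, 1 rose and 7 fell in OCI-LY3 and 2 rose and 5 fell in SU-DHL6, beside the 44.4% and 43.2% of all genes called. With library totals the counts were 0 and 7, and 5 and 1. UCHL5, a deubiquitinase that docks on the regulatory particle, fell in OCI-LY3 by 0.88 ± 0.12 and rose in SU-DHL6 by 0.79 ± 0.12, from 29.8, 23.4 and 22.8 to 42.3, 47.2 and 42.4 CPM. ADRM1, the ubiquitin receptor that recruits UCHL5, fell in SU-DHL6 by 0.43 ± 0.11, but not with library totals (-0.17, adjusted p = 0.185). POMP, the chaperone that completes the core, rose in SU-DHL6 by 0.72 ± 0.19, and PITHD1 fell in both lines, by 0.60 ± 0.10 and 0.82 ± 0.10. PAAF1, a factor that binds base ATPases, rose in OCI-LY3 by 0.28 ± 0.10, but not with library totals (0.16, adjusted p = 0.223).

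NFE2L1 itself stood at 232, 199.5 and 183 CPM in untreated and 106, 105 and 109 CPM in treated OCI-LY3, and at 109, 174 and 138 CPM untreated and 87.8, 98.9 and 90.5 CPM treated in SU-DHL6. It fell by 0.94 ± 0.14 and 0.60 ± 0.14, with no overlap of groups in either line; with library totals the fall in SU-DHL6 was not called (-0.33, adjusted p = 0.0589). Of the 12 genes for NFE2L1, its relative NFE2L2, its processing and its partners, 2 rose and 4 fell in OCI-LY3 and 3 rose and 4 fell in SU-DHL6, and with library totals 2 and 6, and 3 and 2. DDI2, the protease that cuts NFE2L1 into its active form, stood at 55.8, 51 and 46.8 CPM in untreated and 98, 112 and 114 CPM in treated SU-DHL6, a rise of 1.08 ± 0.11 (adjusted p = 2.66e-06). SEL1L rose there by 0.79 ± 0.13. NGLY1, which removes sugars from NFE2L1, rose in OCI-LY3 by 0.41 ± 0.09, and NFE2L2 fell by 1.30 ± 0.28. UFD1, a cofactor of the extraction ATPase VCP, rose in OCI-LY3 by 0.76 ± 0.10 and fell in SU-DHL6 by 0.71 ± 0.11, and its partner NPLOC4 fell in SU-DHL6 by 0.73 ± 0.09.

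Shuttle proteins carry ubiquitin-tagged substrates to the proteasome. Of their genes, UBQLN4 rose by 0.59 ± 0.09 and RAD23B fell by 0.53 ± 0.12 in OCI-LY3. UBQLN1 and UBQLN2 rose by 0.44 ± 0.13 and 0.46 ± 0.09 in SU-DHL6. RPS27A, a fusion of ubiquitin with a ribosomal protein, rose in OCI-LY3 by 0.66 ± 0.09, and UBA1, the main activating enzyme, fell in SU-DHL6 by 0.42 ± 0.09, a call that ended with library totals (-0.15, adjusted p = 0.149).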

How the data were processed

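The authors deposited a table of read counts per gene and FPKM values for the same 12 libraries. Which aligner and counter were used, and whether strand was kept, is not given in the sources used here. Although the builds in the submitters' processing notes are GRCm38 and mm10, of the mouse, the gene identifiers are human, and all 46 member loci equal those of GENCODE release 29 on GRCh38. Per the labels' protocols, libraries were made with a SMARTer mRNA kit.

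The deposited counts were tested with edgeR 4.0.16 in R 4.3.3 (robust quasi-likelihood fit, TMM scaling, filterByExpr by group, 1 coefficient per group, all 12 libraries), with Benjamini-Hochberg adjustment over 16474 genes. CPM use the TMM-scaled totals, and SEs were taken as |log2 fold change| over the root of the F statistic. The deposited FPKM served only for levels and ratios. Alternatives were DESeq2 1.42.0, limma 3.58.1, other scalings, filters and thresholds, fits of each line alone, a replicate block and omissions of 1 library. Refits with merged counts and merged exon lengths were added after seeing the data. On simulated counts for the OCI-LY3 comparison (16474 genes), 17.3% of genes changed 1.5-fold, 53.7% changed 2-fold and 93.8% changed 4-fold were recovered. Only 81, 54 and 65 genes were changed at these folds, with means pooled over all libraries, whereas 44.4% of genes were called in the data. The adjusted p threshold is therefore not equally strict, and these shares do not give the power of the comparison.

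Members and lists were chosen with earlier results of these data known. Named in full are up to 4 called members per direction and comparison with the largest change, the highest and lowest subunits, the active-site subunits, and all PSME, PSMF and PSMG genes; of each list, up to 2 genes per direction and line with the smallest adjusted p. Results for a few genes of the marker and pathway lists are not reported here.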

Additional observations from a re-analysis of the deposited data

Results flagged for a closer look

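The responses of 20 members to selinexor differed between the lines by the interaction contrast of the edgeR model (SU-DHL6 minus OCI-LY3, log2). That is 44.4% of the 45 members tested, against 36.9% of all 16474 genes. Higher in SU-DHL6 were the alpha subunits PSMA3 (0.81) and PSMA4 (1.08), the ATPases PSMC1 (0.68) and PSMC6 (0.53), the scaffold subunit PSMD1 (0.89), the lid subunits PSMD7 (0.52), PSMD12 (1.12) and PSMD14 (0.86), the activators PSME2 (0.47) and PSME4 (0.82), and the chaperones PSMG1 (0.55) and PSMG4 (0.62). Lower in SU-DHL6 were the beta subunits PSMB3 (-0.51), PSMB4 (-0.43) and PSMB7 (-0.84), the ATPases PSMC3 (-0.42), PSMC4 (-0.47) and PSMC5 (-0.83), the activator PSME3 (-1.53) and the chaperone PSMG2 (-0.76). With library totals PSMB3, PSMB4, PSMC3 and PSMC4 were not called. Leaving out 1 library could end these calls and those of PSMC1, PSMD7 and PSME2. The lines may also differ in dose and time, which the labels tie to no library.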

How the results depend on the processing

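Of the members called, 15 of 20 in OCI-LY3, 13 of 22 in SU-DHL6, 11 of 20 for the difference of responses and 21 of 26 between the untreated lines were called under every alternative run. Leaving out 1 library gave 16 to 19, 20 to 27, 14 to 21 and 22 to 28 calls. Fitted alone, OCI-LY3 had 27 of 44 members called, 6 higher and 21 lower, beside 7779 of 14506 genes. Calls gained there were PSMB1, PSMC4, PSMD1, PSMD2, PSMD4, PSMD12 and PSME1, and PSMD4 was also called with DESeq2 and limma. SU-DHL6 fitted alone had 20 of 45 members called, 8 higher and 12 lower, beside 6588 of 14781 genes. At an adjusted p under 0.01, 11 differences of responses were called. Without a count filter 12 differences were higher and 4 lower. Library totals moved the core median in SU-DHL6 to 0.10 and the regulatory medians to -0.28 in OCI-LY3 and 0.23 in SU-DHL6, and turned PSME1 in SU-DHL6 from -0.02 to 0.24; the cause was not tested. Taken as the difference of median log2 FPKM over subunits, the core to regulatory level was 1.17 and 0.97 in untreated and treated OCI-LY3 and 0.81 and 0.55 in untreated and treated SU-DHL6.

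With the replicate number as a block, 18, 20 and 15 members were called in OCI-LY3, in SU-DHL6 and for the difference; no blocked fit was run between the untreated lines. Each library's log2 CPM were taken as deviations from its group mean, gene by gene. These deviations correlated between same-numbered untreated and treated libraries at 0.00747, 0.00472 and 0.0132 in OCI-LY3 and at -0.12, -0.022 and 0.0501 in SU-DHL6. Differently numbered libraries gave -0.0211 to 0.0147 in OCI-LY3 and -0.0962 to 0.105 in SU-DHL6. The numbers were therefore not taken as pairs. In counts simulated at this depth with 3 libraries a group, 17.3% of genes changed 1.5-fold were recovered, and depth was not varied. Far fewer genes were changed there than were called in the data, so this share does not give the power of the comparisons here.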
